A study of Homo sapiens with 6 samples.

Results

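The genes described here are 10 members of the TRAIL and death receptor pathway. They are the ligand gene TNFSF10, its receptor genes TNFRSF10A, TNFRSF10B, TNFRSF10C and TNFRSF10D, the receptor genes FAS and TNFRSF1A, and the proximal signalling genes FADD, CASP8 and CFLAR. They were taken by symbol from 61487 Ensembl gene IDs, and each symbol matched 1 ID. RNA was sequenced from the human line K562, which came from a chronic myeloid leukaemia and carries the BCR-ABL1 fusion. One group is 3 libraries of azacitidine-sensitive K562 cells. The other is 3 libraries of resistant K562 cells, derived from sensitive cells by months of growth in rising drug concentrations. Azacitidine is a cytidine analogue that enters RNA and DNA and traps DNA methyltransferases. The library names end in NT in both groups, which the labels do not spell out, and no treatment at harvest is given. The resistant cells are 1 derived population. Differences that arose in it for other reasons cannot be told apart from resistance.

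Death ligands of the tumour necrosis factor family bind trimeric receptors whose cytoplasmic death domain recruits the adaptor FADD. FADD gathers procaspase-8 through death effector domains, and the gathered caspase activates itself and then the executioner caspases. CFLAR encodes FLIP, a caspase-8 relative without protease activity that enters the same complex and can limit activation. TRAIL, the product of TNFSF10, binds 2 receptors that signal death (TNFRSF10A, also DR4, and TNFRSF10B, also DR5) and 2 that do not (TNFRSF10C and TNFRSF10D, the decoy receptors). TRAIL is studied as an antitumour ligand, and leukaemia lines differ widely in their sensitivity to it.

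Total counts were between 33007642 and 43006918 per library. Levels are given as CPM, the count scaled by the library's TMM-adjusted total. The first principal component of log2 CPM, with 66.3% of the variance, separated the groups. The second, with 18.0%, set replicate 3 of each group off from replicates 1 and 2, so results are also given without both where they change. The labelled cell type is myeloblast, but the myeloblast genes MPO, ELANE and CD34 had at most 4 counts in any library. Of 8 erythroid and megakaryocyte markers, which K562 cells are known to express, 7 were tested, LMO2 fell and 6 did not pass. They summed to 440 to 523 CPM in sensitive and 348 to 626 CPM in resistant libraries, with the embryonic globin gene HBE1 near 0 in all 6. Of 8 myeloblast markers, 5 could be tested and 3 fell (13.1% of all genes tested did). These were PRTN3, CD33 and the stem cell factor receptor gene KIT, while AZU1 and ANPEP overlapped between groups and did not pass. The summed level of the 8 was 239 to 260 CPM in sensitive and 20.2 to 32.4 CPM in resistant libraries. Most of the sensitive sum came from CD33 and KIT, with means of 105 and 121 CPM. The part of all these markers in the results below was not tested. In bulk RNA, fewer cells of a type and less RNA per cell cannot be told apart.

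Across the pathway, transcripts of the ligand, of both signalling TRAIL receptors, of FAS, of the TNF receptor and of caspase-8 and FLIP were lower in resistant cells, while 1 decoy receptor was higher. Of the 10 members, 9 passed the filter on low counts, 7 fell, 1 (TNFRSF10D) rose and 1 (FADD) did not pass at an edgeR adjusted p below 0.05. TNFRSF10C was too low to test. Of all 20891 genes tested, 13.1% were called lower, 9.83% higher and 23% in either direction. By at least 2-fold, 5 members fell and 1 rose, against 8.97% and 6.11% of all genes. The resistant values lay wholly below the sensitive values for 8 members (21.4% of all genes) and wholly above for 1 (18.7%), and 40.1% of all genes were apart in either direction. FAS and TNFRSF10D reached the filter's level of 0.268 CPM (by library totals) in 1 group only, and TNFSF10 in 1 resistant library besides the 3 sensitive ones. Their passing thus rested on the group where they are high, and their calls are no independent support. The median log2 fold change of the 9 tested members was −1.07, beside 0.03 for all genes. The members were proposed with results of these libraries known, so these counts are a description.

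**Figure D1:**
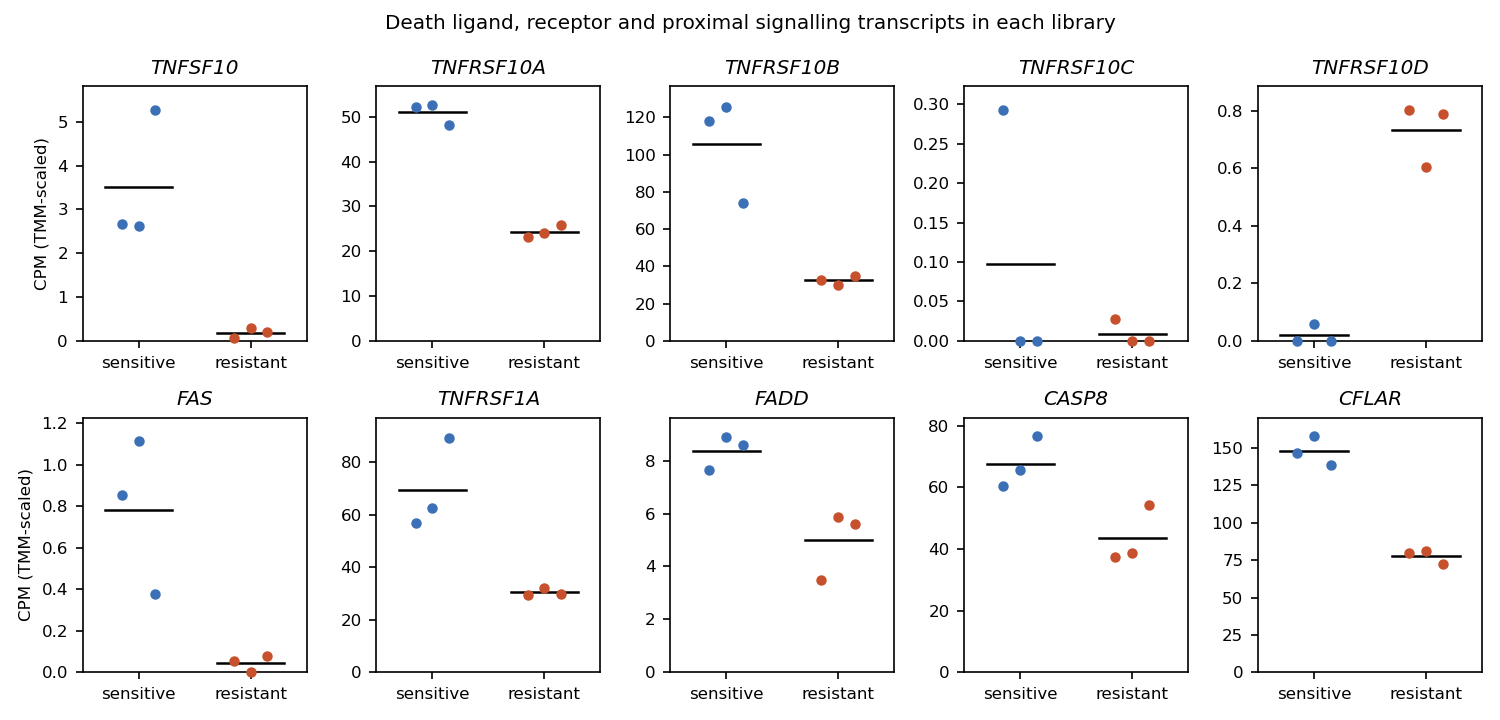
TMM-scaled CPM (vertical axis, linear, a separate scale for each gene) of the 10 genes in the 3 sensitive (blue) and 3 resistant (red) libraries, from left to right replicates 1 to 3, with group means as black lines. The groups are apart for every gene except TNFRSF10C, and only TNFRSF10D lies higher in resistant cells.

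TNFSF10 encodes TRAIL, which cells of the blood system can express and which interferons induce. The gene lies on the minus strand of chromosome 3 (172505508 to 172523507, GENCODE 29 on GRCh38). It measured 2.66, 2.62 and 5.28 CPM in sensitive replicates 1, 2 and 3, and 0.0554, 0.302 and 0.210 CPM in the resistant replicates. The counts behind the resistant values were 2, 12 and 8. Every resistant library was below every sensitive one, and sensitive replicate 3 was the highest. The log2 fold change was −4.18 ± 0.56 (SE, n = 3 per group), an 18.1-fold fall with a 95% interval of −5.43 to −2.93 and an edgeR adjusted p of 6.19e-04. Over all 15 alternatives, the log2 fold change lay between −4.68 and −3.76. Reading each pair of low counts as 1 fragment, the ratio of summed counts was 18.2 (exact 95% binomial interval 9.96 to 37.1, counting error only).

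The 250 bases before the RefSeq start of TNFSF10 (GRCh38.p14, chr3:172523431-172523680, minus strand, printed 5′ to 3′) are shown because TNFSF10 and FAS had the 2 largest fitted falls among the members, with the dinucleotide CG, where DNA methylation falls in human cells, in capitals.
TNFSF10: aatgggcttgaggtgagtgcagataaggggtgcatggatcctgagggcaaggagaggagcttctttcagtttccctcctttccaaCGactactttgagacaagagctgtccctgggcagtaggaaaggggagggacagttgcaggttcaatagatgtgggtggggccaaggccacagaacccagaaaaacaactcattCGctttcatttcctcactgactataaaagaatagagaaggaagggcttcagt
The window holds 2 CG dinucleotides. Among 35116 such windows of all genes, the median was 11, and 22.9% held no more than 2. It has 1 match to GAAA, any 2 bases and GAAA again, a core of the element bound by interferon-induced factors, which 3.02% of all windows contain on either strand. It also has 1 match to TATAAA, found in 10.7% of windows. DNA methylation and factor binding were not measured in these libraries, and letters alone are not a site.

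The genes whose profile over the 6 libraries lay nearest to that of TNFSF10, by Euclidean distance of log2 CPM centred on the sensitive mean, among 13538 protein-coding genes, were EDARADD (distance 0.714), STAP1 (0.968), RIPOR2 (0.999), ANKRD44 (1.06) and TRAM1L1 (1.08). RIPOR2 and TRAM1L1 each had 0, 2 and 0 counts in resistant libraries, so they passed the filter through the sensitive group. EDARADD encodes the death domain adaptor of the ectodysplasin receptor and averaged 10.7 ± 3.08 CPM in sensitive against 0.721 ± 0.232 CPM in resistant cells (SD, n = 3 each). Genes of the T cell receptor complex had the same outlying library. CD3D measured 28.2, 18.5 and 95.2 CPM in sensitive and 1.91, 2.36 and 1.57 CPM in resistant libraries, so sensitive replicate 3 was again highest. Of 7 T and B cell markers, 5 were tested, and CD3D, CD3E and CD3G fell. CD3E and CD3G reached the filter's level in sensitive libraries only, so both passed through the group where they are high. CD2 had at most 2 counts in any library and MS4A1 had 0 in all 6. The 7 summed to between 28.0 and 121 CPM in sensitive and between 9.91 and 11.8 CPM in resistant libraries, and their part in the fall of TNFSF10 was not tested.

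Both signalling TRAIL receptors fell. Their genes and those of the decoys lie side by side on chromosome 8 (23020133 to 23225126). TNFRSF10B measured 118, 126 and 74.2 CPM in sensitive and 32.7, 30.0 and 34.9 CPM in resistant libraries. Sensitive replicate 3 was the lowest of its group and still above every resistant library. The log2 fold change was −1.70 ± 0.21 (SE), a 3.26-fold fall (interval −2.16 to −1.24, edgeR adjusted p = 3.45e-04).

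TNFRSF10A measured 52.3, 52.7 and 48.2 CPM in sensitive and 23.3, 24.0 and 25.8 CPM in resistant libraries, 2 groups that were tight and far apart. Its log2 fold change was −1.07 ± 0.14 (SE), a 2.10-fold fall (interval −1.38 to −0.75, edgeR adjusted p = 5.48e-04). Exons of TNFRSF10A share 7.59% and 9.01% of their bases with the opposite-strand genes TNFRSF10A-AS1 and TNFRSF10A-DT. The strand setting of the counting is not given, so how reads there were assigned, or whether they were counted, is not known.

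Within a library, the ratio of TNFRSF10B to TNFRSF10A counts does not depend on scaling between libraries. It was 2.26, 2.38 and 1.54 in sensitive and 1.40, 1.25 and 1.35 in resistant libraries. The groups did not overlap, and the ratio was 1.52-fold lower in resistant cells, with an exact two-sided permutation p of 0.1, the smallest that 3 against 3 libraries allow. This ratio was chosen after the values were seen. The nearest profiles to TNFRSF10B were those of SLC4A7 (distance 0.289), TTLL1 (0.294), ACBD7 (0.313), NT5M (0.317) and KIF5A (0.325). SLC4A7, a bicarbonate cotransporter gene, fell from 82.7 ± 21.8 to 25.0 ± 2.15 CPM.

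The decoy receptor gene TNFRSF10D went the other way. TRAIL-R4, its product, has a truncated death domain. It had 0, 2 and 0 counts in sensitive and 29, 24 and 30 counts in resistant libraries, which are 0, 0.0601 and 0 CPM against 0.803, 0.604 and 0.787 CPM. The 2 groups did not overlap. The ratio of the summed counts was 40.6 with an exact 95% binomial interval from 10.9 to 341, and edgeR called the gene higher (adjusted p = 0.00271). Low counts in this table tend to come in twos. Counts of 2 were found for 2727 to 3193 genes per library and counts of 1 for 1286 to 1642, so a count of 2 may be 1 sequenced fragment. With counts divided by 2 the interval was 6.98 to 1660. Sensitive replicate 2 holds all counts of its group, so leaving it out sets the sensitive sum of TNFRSF10D to 0. Against an assumed 3 counts over that group, the ratio was 19.0 with counts as deposited. As the 0 follows from the library left out, this value is no independent support. Both kinds of interval cover counting error only.

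TNFRSF10C, the decoy held at the membrane by a lipid anchor, had 12, 0 and 0 counts in sensitive and 1, 0 and 0 in resistant libraries. All but 1 of its counts came from sensitive replicate 1, and the groups overlapped. The summed counts were 12.3-fold lower in resistant cells, with an exact 95% binomial interval from 1.82 to 525, and with counts divided by 2 from 0.745 to 282. Those intervals leave out the spread between libraries, so a difference was not shown. A count of 0, found in replicates 2 and 3 of each group, allows up to 0.0754 to 0.0902 CPM. Of its exon bases, 26.0% are shared with a same-strand gene, ENSG00000284948, which had 13, 18 and 13 counts in sensitive and 2, 3 and 2 in resistant libraries, so its own counts are uncertain.

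The decoy receptors together took 0.172%, 0.0337% and 0% of TRAIL receptor counts in sensitive and 1.46%, 1.10% and 1.28% in resistant libraries. The counts behind the sensitive shares were 12 of TNFRSF10C in replicate 1 and 2 of TNFRSF10D in replicate 2. The share was higher in every resistant library but remained small beside the signalling receptors, whose counts were 2020, 2151 and 2313 against 30, 24 and 30 for the decoys. The log2 ratio of signalling to decoy counts, with 0.5 added to each, fell by 4.91 from a mean of 11.16 to 6.25 (exact two-sided permutation p = 0.1, the smallest possible). The difference was −4.04 with 2 added, −3.92 without sensitive replicate 3 and −5.93 without sensitive replicate 1. Of the resistant decoy counts, 29, 24 and 30 were of TNFRSF10D. That gene reached the filter's level in resistant libraries only, so the permutation p is no independent support. Longer transcripts yield more counts, so these shares are of reads and not of molecules.

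FAS, the receptor of Fas ligand, lies on chromosome 10 (88990582 to 89015785, plus strand). Its counts were low in both groups, at 35, 37 and 14 in sensitive and 2, 0 and 3 in resistant libraries. These are 0.855, 1.11 and 0.375 CPM against 0.0554, 0 and 0.0787 CPM, with no overlap. By edgeR, the log2 fold change was −4.05 ± 0.82 (SE), a 16.5-fold fall with a wide interval (−5.88 to −2.21, edgeR adjusted p = 0.00633). It was −4.73 without resistant replicate 3, −5.06 without both libraries numbered 3 and −3.47 without resistant replicate 2, the library at 0. The gene of its ligand, FASLG, had 3 counts in sensitive replicate 2 and none elsewhere.

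The corresponding window of FAS (GRCh38.p14, chr10:88990548-88990797, plus strand, before the most upstream of 3 RefSeq starts) is shown as the counterpart to that of TNFSF10, again with CG in capitals. Both genes had fitted falls of over 16-fold, with a wide interval for FAS.
FAS: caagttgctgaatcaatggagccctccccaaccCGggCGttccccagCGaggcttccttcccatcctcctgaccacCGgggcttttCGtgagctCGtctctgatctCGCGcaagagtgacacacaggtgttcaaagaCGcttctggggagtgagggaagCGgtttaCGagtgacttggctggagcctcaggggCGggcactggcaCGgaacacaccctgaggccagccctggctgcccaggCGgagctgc
It holds 14 CG dinucleotides, and 57.1% of all windows hold no more. It has 1 match to GGGCGG, the letters of a GC box, which 42.6% of windows contain, and none of the other 2 motifs in these 250 bases. The windows of the remaining members in the table held 6 CG dinucleotides for CASP8, 17 for CFLAR, 32 for FADD and 4 for TNFRSF1A. The 5 members that fell and have a window thus ranged from 2 to 17 CG dinucleotides.

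TNFRSF1A, the main receptor of tumour necrosis factor, which signals survival or death according to the complex it forms, lies on chromosome 12 (6328757 to 6342114). It measured 56.9, 62.5 and 89.4 CPM in sensitive and 29.6, 32.0 and 30.0 CPM in resistant libraries. Sensitive replicate 3 was the highest, and the groups were apart. The log2 fold change was −1.19 ± 0.19 (SE), a 2.28-fold fall (interval −1.61 to −0.77, edgeR adjusted p = 0.00164). The second TNF receptor gene, TNFRSF1B, whose product has no death domain, measured 61.5 ± 6.72 and 47.0 ± 4.26 CPM (log2 fold change −0.39, interval −0.73 to −0.05, edgeR adjusted p = 0.0940). The TNF gene had at most 2 counts in any library.

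Among the members, the fitted falls of FADD, CASP8 and CFLAR were smaller than those of the receptor genes that fell. Their intervals overlapped those of TNFRSF10A and TNFRSF1A, and differences between genes were not tested. FADD, on chromosome 11 (70203163 to 70207390), measured 7.63, 8.90 and 8.60 CPM in sensitive and 3.49, 5.88 and 5.59 CPM in resistant libraries. The groups did not overlap, but resistant replicate 1 lay well below the other 2. The log2 fold change of −0.75 ± 0.25 (SE, interval −1.30 to −0.19) did not pass (edgeR adjusted p = 0.0554). It passed with DESeq2 (adjusted p = 0.0279), with limma-voom (0.0488), without resistant replicate 3 (0.0376) and without both libraries numbered 3 (0.0106), and leaving out resistant replicate 1 gave 0.153. An opposite-strand gene, ENSG00000254721, covers 54.9% of the FADD exon bases and had 0 counts in all 6 libraries.

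CASP8, the initiator caspase, and CFLAR lie in a cluster with CASP10, a related initiator caspase gene, on chromosome 2 (CFLAR at 201116104 to 201176687 and CASP8 at 201233443 to 201287711). CASP8 measured 60.6, 65.5 and 76.8 CPM in sensitive and 37.5, 38.8 and 54.2 CPM in resistant libraries. Resistant replicate 3 came nearest to the sensitive group. The log2 fold change was −0.64 ± 0.18 (SE, interval −1.05 to −0.23, edgeR adjusted p = 0.0315). This call was lost without any 1 of sensitive replicates 1, 2 and 3 (adjusted p = 0.0595, 0.0781 and 0.104) or of resistant replicates 1 and 2 (0.105 and 0.170, edgeR), and with library totals in place of TMM (0.0662).

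CFLAR fell by 0.93 ± 0.15 on the log2 scale (SE, interval −1.25 to −0.60, edgeR adjusted p = 0.00152). It measured 147, 158 and 139 CPM in sensitive and 79.9, 81.1 and 72.1 CPM in resistant libraries, with little spread in either group. The call held in all 15 alternatives, at log2 fold changes from −0.98 to −0.76. Counts are per gene, so the long and short FLIP isoforms, which differ in their effect on caspase-8, were not told apart. The antisense gene CFLAR-AS1 shares 3.45% of the exon bases of CFLAR and had 144 to 250 counts per library, against 2750 to 6010 for CFLAR.

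The balance of FLIP and caspase-8 transcripts is often given as a ratio. CFLAR counts were 2.42, 2.41 and 1.81 times those of CASP8 in sensitive and 2.13, 2.09 and 1.33 times in resistant libraries. The groups overlapped, and the mean log2 ratio went from 1.13 ± 0.24 to 0.86 ± 0.38 (SD, n = 3 per group), with an exact two-sided permutation p of 0.5. Both libraries numbered 3 were the lowest of their group. CASP10 counts were 1.03, 1.12 and 0.842 times those of CASP8 in sensitive and 0.948, 0.929 and 0.802 times in resistant libraries (exact permutation p = 0.4), also overlapping. With 3 libraries per group neither test could reach 0.05, so equal ratios were not shown.

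**Figure D2:**
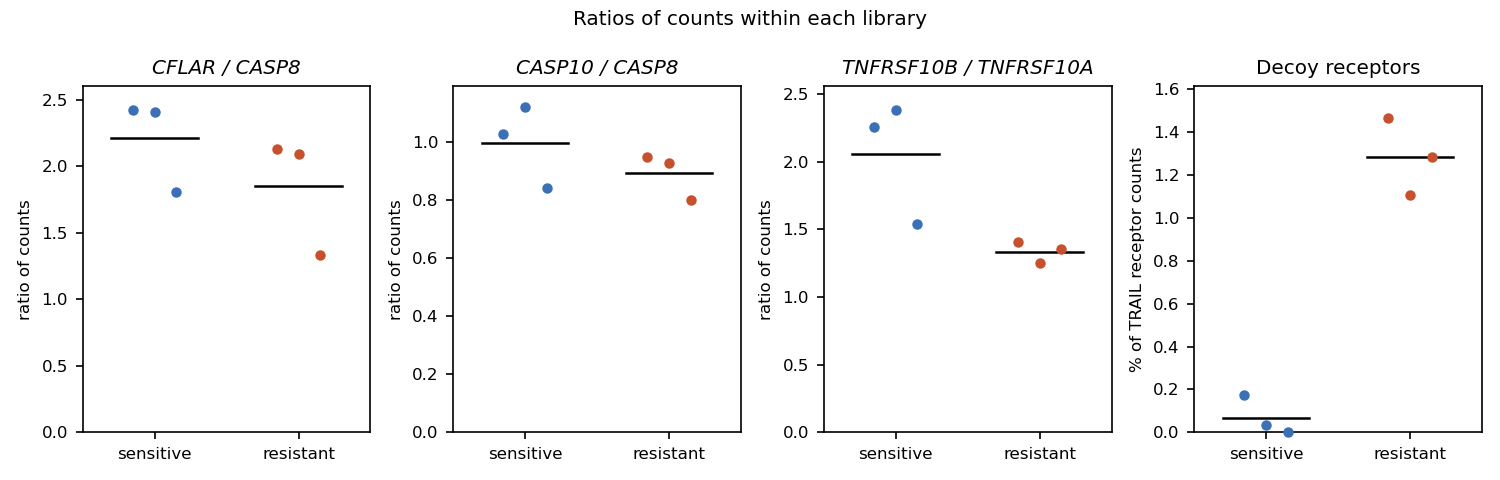
Ratios of counts within each library for CFLAR over CASP8, CASP10 over CASP8 and TNFRSF10B over TNFRSF10A, and the decoy receptors' percentage of all TRAIL receptor counts, in sensitive (blue) and resistant (red) libraries with group means as black lines. The first 2 ratios overlap between groups, while TNFRSF10B over TNFRSF10A is lower (1.25 to 1.40 against 1.54 to 2.38) and the decoy share higher in every resistant library.

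Levels of different genes were compared per length, as CPM per kilobase of the longest APPRIS principal transcript in GENCODE 29. In sensitive cells CASP8 was highest at 41.5 ± 5.09 (SD, n = 3), followed by TNFRSF1A at 31.3 ± 7.82, TNFRSF10B at 25.5 ± 6.68, TNFRSF10A at 18.8 ± 0.904 and CFLAR at 10.1 ± 0.658. FADD stood at 4.55 ± 0.361, TNFSF10 at 1.80 ± 0.780 and FAS at 0.305 ± 0.146, while both decoys were at most 0.171 in any library. The values of CASP8 and TNFRSF1A overlapped across libraries, as did those of TNFRSF1A and TNFRSF10B and those of TNFRSF10B and TNFRSF10A. In resistant cells CASP8 (26.7 ± 5.69) and TNFRSF1A (13.7 ± 0.593) still led, and TNFRSF10A (8.97 ± 0.477) stood just above TNFRSF10B (7.85 ± 0.583). TNFRSF10D (0.207 ± 0.0313) ranked above TNFSF10 (0.0968 ± 0.0638) and FAS (0.0174 ± 0.0158) there. The order at the top depends on the length used. With all exon bases of a gene as its length, CASP8 took rank 4 in both groups, TNFRSF10B first in sensitive and TNFRSF10A first in resistant cells.

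To set the members beside the genes around them, the 3 nearest tested protein-coding genes on each side were taken at 4 loci. Of the 24, edgeR called 5, a share near the 23% called among all genes tested. None of the 6 neighbours of the TNFRSF10 cluster passed by edgeR, with log2 fold changes from −1.06 (LOXL2, edgeR adjusted p = 0.0763) to 0.23 (RHOBTB2, 0.645). At an unadjusted p below 0.05, 1 of the 6 was lower (35.9% of all genes differed by this measure). DESeq2 called 1 and limma-voom 0, against 27.5% and 22.1% of all genes. None of the 6 around the CASP8 and CFLAR cluster passed either, with log2 fold changes from −0.54 (NDUFB3, 0.193) to 0.45 (ORC2, 0.0704). Here 2 of the 6 had an unadjusted p below 0.05, and DESeq2 and limma-voom called 0. CASP10, between CASP8 and CFLAR, fell from 66.8 ± 5.86 to 38.3 ± 4.41 CPM (edgeR adjusted p = 0.00430), so all 3 genes of this cluster were lower.

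On one side of TNFSF10, FNDC3B fell by 0.82 and PLD1 by 1.07 on the log2 scale, and the other 4 neighbours did not pass. The 3 genes after FAS fell, of which LIPA and IFIT2, like FAS, passed the filter on low counts through the sensitive group. LIPA, encoding lysosomal acid lipase, had 40, 46 and 13 counts in sensitive and 0, 4 and 0 in resistant libraries. IFIT2 and IFIT3, both interferon-induced, had 67, 70 and 46 against 0, 4 and 0 counts, and 208, 221 and 196 against 22, 46 and 38 counts. On the other side of FAS, RNLS (log2 fold change −1.24, edgeR adjusted p = 0.0603) and KLLN (0.27, 0.680) did not pass. Of the 6 neighbours of FAS, 5 had an unadjusted p below 0.05, and DESeq2 and limma-voom each called 4. Of the 6 neighbours of TNFSF10, each of these measures gave 2. The shares over all genes were 35.9%, 27.5% and 22.1%. ACTA2, which overlaps the start of FAS on the opposite strand, had at most 13 counts and was not tested.

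**Figure D3:**
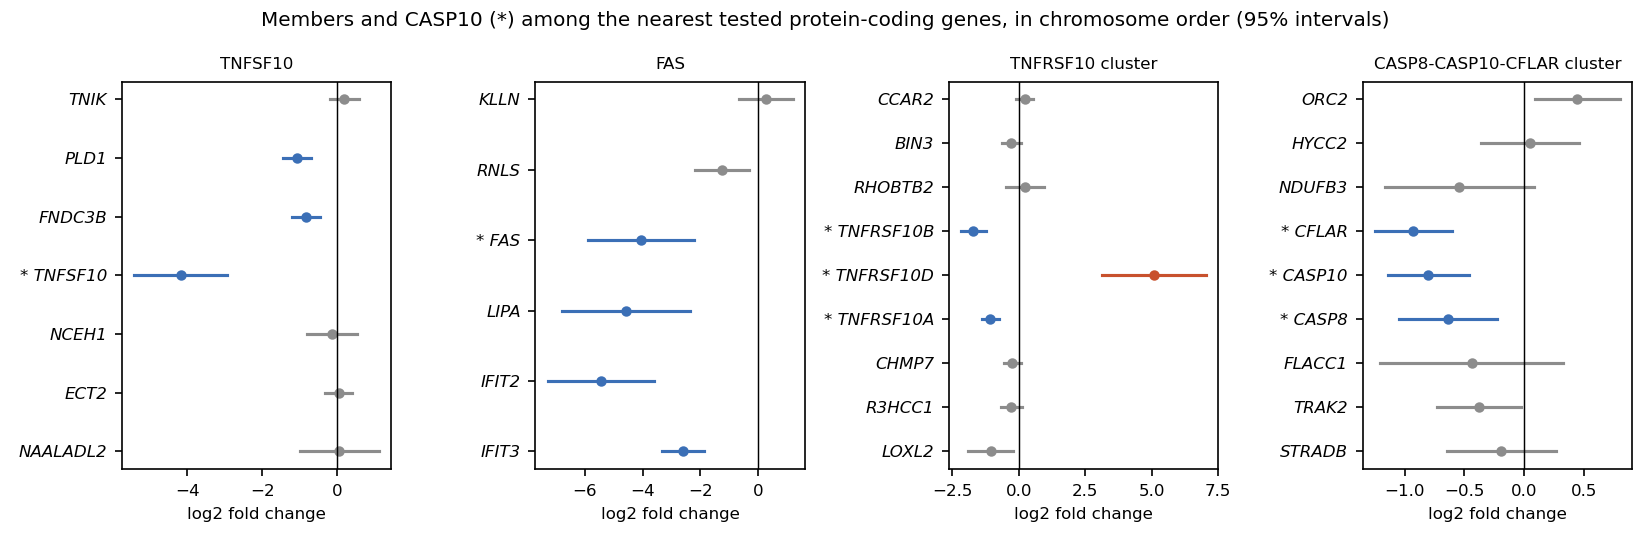
Log2 fold changes (resistant over sensitive, horizontal axis, a separate scale for each panel) with 95% intervals for the tested members and CASP10, marked with an asterisk, among the nearest tested protein-coding genes on each side (3, or 2 before FAS), from top to bottom in chromosome order. Blue is lower and red higher at an edgeR adjusted p below 0.05, and grey did not pass; none of the neighbours of the TNFRSF10 and CASP8 clusters passed, while LIPA, IFIT2 and IFIT3 fell, as FAS did.

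Beyond the 10 members, 85 genes of the pathway were taken in 5 lists. With 73 tested, edgeR called 6 higher and 13 lower and left 54 uncalled, with a median log2 fold change of −0.07. Over all genes, 9.83% were called higher and 13.1% lower. Library totals in place of TMM gave 11 higher and 11 lower. The rises numbered 3 without sensitive replicate 2 or without resistant replicate 2, and the falls 20 without resistant replicate 3.

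Among 15 other death ligands and receptors, 7 were tested, 4 fell and 2 rose. TNFRSF21, or death receptor 6, fell from 8.12 ± 1.77 to 1.31 ± 0.552 CPM, and TNFRSF12A, the receptor of TWEAK, from 24.8 ± 3.54 to 12.3 ± 1.13 CPM. The ligand genes LTB and TNFSF14 were low, and fell from 1.54 ± 0.457 to 0.514 ± 0.179 and from 0.574 ± 0.0138 to 0.0695 ± 0.0270 CPM. LTB was not called without sensitive replicate 1 or 2 or without resistant replicate 2 (edgeR adjusted p = 0.0827, 0.104 and 0.108). With library totals in place of TMM it was not called either (edgeR adjusted p = 0.0501). EDA2R, an ectodysplasin receptor gene on the X chromosome, rose from 0.498 ± 0.328 to 7.15 ± 1.18 CPM, a log2 fold change of 3.85 ± 0.45 (SE, edgeR adjusted p = 2.86e-04). TNFRSF25, or death receptor 3, had 14, 2 and 2 counts in sensitive and 34, 27 and 24 in resistant libraries. It was called higher (edgeR adjusted p = 0.0434), but not without sensitive replicate 2 (0.141) or 3 (0.109) or resistant replicate 1 (0.116) or 2 (0.108). TNFSF14 reached the filter's level in sensitive libraries only, and TNFRSF25 in 1 sensitive library besides the resistant ones, so both passed through the group where they are high.

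Of 21 tested adaptors, ubiquitin enzymes and necroptosis kinases, 17 did not pass. MLKL, the membrane-permeabilising effector of necroptosis, fell from 9.85, 9.05 and 14.2 CPM to 1.63, 1.16 and 1.23 CPM. Its fold change on the log2 scale was −3.04 ± 0.28 (SE), at an edgeR adjusted p of 5.71e-05. RIPK3, the kinase upstream of it, had at most 8 counts in any library. RBCK1, a subunit of the linear ubiquitin ligase, fell from 60.3 ± 17.9 to 29.9 ± 2.85 CPM (not called without resistant replicate 2, edgeR adjusted p = 0.0554), and the deubiquitinase gene CYLD from 26.8 ± 2.15 to 17.7 ± 0.490 CPM. CUL3, whose ligase ubiquitylates caspase-8, rose from 55.4 ± 3.11 to 80.9 ± 7.83 CPM. CYLD lost its call without sensitive replicate 2 (edgeR adjusted p = 0.0560), resistant replicate 1 (0.0549) or resistant replicate 2 (0.0880). It also lost the call with library totals in place of TMM (edgeR adjusted p = 0.0606). CUL3 lost its call without replicates 1 or 2 of either group (edgeR adjusted p = 0.0726 to 0.124) and without the filter on low counts (0.0520). RIPK1 (log2 fold change 0.45, edgeR adjusted p = 0.0604) and TRADD (−0.54, 0.0673) did not pass.

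Of 14 caspase and mitochondrial genes, CASP10 and CASP9, the caspase of the apoptosome, fell, the latter from 57.0 ± 7.03 to 30.8 ± 3.30 CPM, and 12 did not pass. BID, which links caspase-8 to mitochondria, measured 69.8 ± 11.1 and 53.3 ± 8.31 CPM (edgeR adjusted p = 0.143). Among 14 tested modulators of the complex and of receptor transport, 2 rose and 1 fell. MARCHF8, a ubiquitin ligase that removes TRAIL receptor 1 from the cell surface, rose from 25.9 ± 5.00 to 53.7 ± 7.27 CPM. FAIM2, an inhibitor of Fas signalling, rose from 4, 2 and 2 counts to 39, 39 and 42, a log2 fold change of 3.82 ± 0.52 (SE), for a gene that passed the filter through the resistant group only, and TNFAIP8 fell from 64.3 ± 5.60 to 38.0 ± 8.76 CPM. TNFAIP8 was not called without sensitive replicate 1 (edgeR adjusted p = 0.0646) or resistant replicate 1 (0.0523) or 2 (0.0996).

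Of 17 transcription regulators with reported links to these genes, 3 fell and 1 rose. DDIT3, or CHOP, a known activator of TNFRSF10B in endoplasmic reticulum stress, measured 109, 117 and 89.9 CPM in sensitive and 27.9, 34.5 and 40.5 CPM in resistant libraries. The groups were apart, with an edgeR adjusted p of 2.24e-04, and the part of DDIT3 in the fall of TNFRSF10B was not tested. TRIB3, a target of CHOP, fell from 361 ± 49.8 to 122 ± 51.1 CPM. IRF1, an interferon-responsive factor, fell from 12.9 ± 2.25 to 6.66 ± 0.401 CPM. YY1 rose from 78.1 ± 3.96 to 116 ± 6.95 CPM, a call lost without sensitive replicate 1 (edgeR adjusted p = 0.0784) or 2 (0.108) or resistant replicate 2 (0.116).

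**Figure D4:**
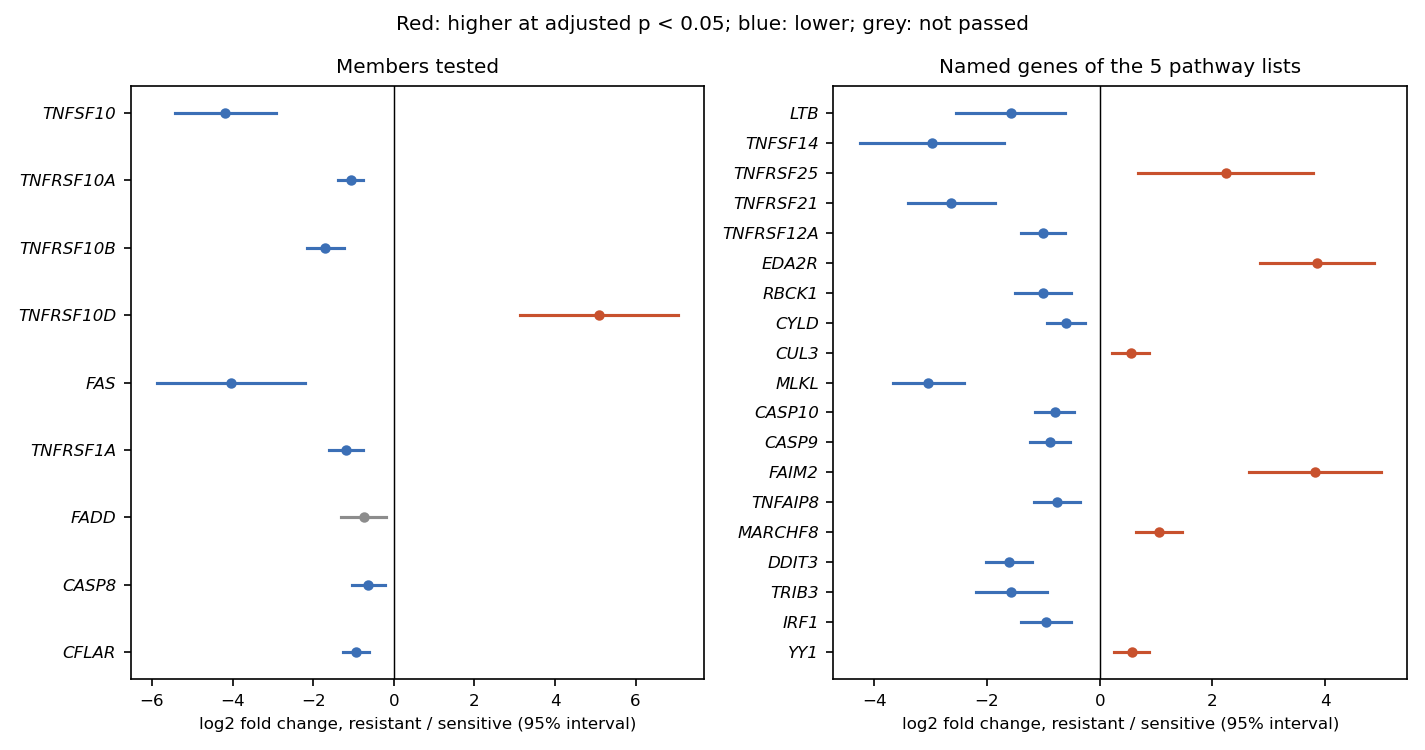
Log2 fold changes (resistant over sensitive, horizontal axis) with 95% intervals from the edgeR fit for the 9 tested members (left) and the 19 named genes of the 5 pathway lists (right). Blue is lower and red higher at an edgeR adjusted p below 0.05, and FADD, in grey, did not pass; the low-count genes TNFSF10, FAS and TNFRSF10D have the widest intervals among the members.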

How the data were processed

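RNA-seq was made from 6 K562 libraries, 3 azacitidine-sensitive and 3 azacitidine-resistant. Per the labels' protocols, DNase-treated total RNA was depleted of ribosomal RNA and sequenced in pairs with a stranded kit. The submitters' processing notes name Trimmomatic 0.39, HISAT2 2.2.1, featureCounts, Subread 2.0.3 and GRCh38. Annotation release, strand setting and whether reads or fragments were counted: not given in the sources used here. The authors deposited raw counts per Ensembl gene, and no row lacked a gene ID.

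Of 61487 genes, 20891 passed filterByExpr. They were scaled with TMM and tested two-sided with edgeR 4.0.16 (robust quasi-likelihood) in R 4.3.3, with Benjamini-Hochberg adjustment over all tested and calls at an adjusted p below 0.05. The SE is the log2 fold change divided by the square root of F, and its 95% interval uses the fitted degrees of freedom. Ratios within libraries were tested with exact permutations (SciPy 1.17.1). The sample titles name biological replicates but do not say what was kept separate, and the p-values describe how these 6 libraries spread.

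Positions and lengths came from GENCODE 29 and may not match the counted annotation. Promoter windows came from RefSeq (GRCh38.p14) and matched 6 of the 10 members. Each of these windows lies at least partly inside its gene as placed by GENCODE 29, so the starts differ. The members and gene lists were chosen with earlier results of these data known. The genes named were all members, each list's called genes with at least a 2-fold change plus its 2 most significant others, the 3 nearest tested neighbours on each side, and the 5 nearest profiles. Marker genes, genes of low counts and genes that did not pass were named in addition, after their values were seen. Steps were tested on simulated counts. Alternatives were other scalings and filters, a replicate block, DESeq2 1.42.0, limma-voom (limma 3.58.1) and each library left out, and, chosen after seeing the data, both libraries numbered 3 left out. Results for a few further genes are not reported here.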

Additional observations from a re-analysis of the deposited data

How the results depend on the processing

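The fall of TNFSF10, TNFRSF10A, TNFRSF10B, TNFRSF1A and CFLAR kept its direction and call in all 15 alternatives. The fall of FAS and the rise of TNFRSF10D did so in the 14 in which they were tested. TNFSF10, FAS and TNFRSF10D passed the filter on low counts through the group where they are high. That their calls were kept is thus no independent support. CASP8 lost its call in 6 and FADD gained one in 6. With at least 50 counts in 3 libraries TNFRSF10D and FAS were not tested, leaving 0 members higher. The members lower were between 6 and 8 in every alternative. Leaving out 1 library gave 1051 to 3327 genes higher, 1677 to 3718 lower, 3 to 8 pathway list genes higher and 10 to 20 lower. Without both libraries numbered 3, 4645 genes were higher and 5021 lower, with 12 and 30 list genes. With library totals, 11 list genes were higher, and 58.9% of all calls were higher against 42.8% with TMM, while the median log2 fold change moved from 0.03 to 0.20 over all genes. The cause was not tested. Same-numbered libraries correlated in their deviations from group means at 0.202, 0.085 and 0.299, and sensitive replicate 2 correlated best with resistant replicate 1, so the numbers were not taken to pair the samples. A replicate block gave 2859 genes higher and 3582 lower, and called FADD lower (edgeR adjusted p = 0.0224). Genes near 0 counts, TNFRSF10C above all, are limited by depth.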
